A study of Mus musculus with 28 samples.

Results

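The 10 genes described here encode the chains and linker proteins of the vascular basement membrane: the collagen IV chains Col4a1 and Col4a2, the laminin α chains Lama2, Lama4, and Lama5, the laminin β chains Lamb1 and Lamb2, the laminin γ chain Lamc1, and the linkers Nid1 (nidogen 1) and Hspg2 (perlecan). They were taken by symbol, as 10 of the 56980 genes in the bulk count table and as the same 10 rows of 3 single-cell matrices, and the choice used no threshold on a measured value. The study followed the mouse jugular vein after it was joined end to side to the carotid artery to form an arteriovenous fistula (AVF). All animals were male and female C57BL/6 mice that had undergone 5/6 nephrectomy before the fistula surgery, including those that gave the control veins, which were the contralateral jugular veins. Bulk RNA sequencing measured 1 vessel per library in 7 contralateral veins and in 8 early, 5 mid, and 5 late AVFs, collected about 3, 10, and 21 days after surgery. Single-cell RNA sequencing measured 1 pool of vessels each for contralateral veins, early AVFs, and late AVFs, so the single-cell values have no replicates. By the study's mean days, the early and late pools were collected later after surgery than the bulk early and late AVFs.

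The basement membrane is a thin sheet of matrix that lies under the endothelium and around every smooth muscle cell, Schwann cell, and fat cell of the vessel. Laminins are trimers of an α, a β, and a γ chain that attach to cell-surface receptors and polymerize, while collagen IV forms a second, covalently cross-linked network. Nidogens and perlecan tie both networks together. Lama4 and Lama5 are the α chains of endothelial laminins, Lama2 that of muscle and peripheral nerve, and Lamb1 and Lamb2 are alternative β chains that can pair with the same γ chain, Lamc1.

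Both collagen IV genes start within a few bases of each other on mouse chromosome 8. In GENCODE M21 (GRCm38), Col4a1 (ENSMUSG00000031502) covers chr8:11198423-11312826 on the minus strand and Col4a2 (ENSMUSG00000031503) covers chr8:11312805-11449287 on the plus strand, so that their first exons overlap by 22 bases. The plus strand of chr8:11312801-11312830 is shown here because it holds both start sites, with the 22 shared bases in capitals (RefSeq promoter table, GRCm38.p6).
Col4a2 and Col4a1 starts: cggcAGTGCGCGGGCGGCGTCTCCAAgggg
Of the 10 genes, 8 had an entry in that table, a window of 250 bases before and 50 bases after the RefSeq start. The alternative β chains differed in base composition there. G or C made up 63.7% of the Lamb1 window and 44.0% of the Lamb2 window, against 74.0% for Col4a1 and 73.7% for Col4a2. The RefSeq starts of Lamb1 (chr12:31265293) and Lamb2 (chr9:108479862) lie inside their GENCODE transcripts, which start at 31265234 and 108479736. The Lamb2 window therefore reaches further into its transcript than the Lamb1 window, so the windows do not cover like stretches. The bases upstream of the annotated Lamb1 transcript (chr12:31265043-31265233) and of the Lamb2 transcript (chr9:108479612-108479735) are shown because, of 7 ratios tested, that of these 2 genes differed most between early AVFs and contralateral veins, both on the plus strand and with each GC box (GGGCGG on either strand) in capitals.
Lamb1 upstream: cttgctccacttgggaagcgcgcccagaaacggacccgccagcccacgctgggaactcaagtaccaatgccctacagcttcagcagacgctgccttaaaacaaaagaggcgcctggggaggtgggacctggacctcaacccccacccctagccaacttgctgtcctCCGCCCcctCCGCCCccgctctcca
Lamb2 upstream: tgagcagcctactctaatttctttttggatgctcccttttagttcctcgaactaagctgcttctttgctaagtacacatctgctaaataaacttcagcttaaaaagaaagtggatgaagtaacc
A GC box stood in 7 of the 8 windows of 300 bases, Lamb2 being the exception, and in 35.7% of the 32851 windows in the table. The CCAAT box (CCAAT) stood in 4 of the 8 and in 37.4% of all windows. Neither the TATA box (TATAAA) nor the AP-1 motif (TGANTCA) was in any of the 8, while 13.6% and 7.81% of all windows held them. These matches describe letters only.

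Bulk libraries held between 20254173 and 67457501 counted reads each. The contralateral libraries were sparse for their depth: 11958 to 18283 genes had at least 1 count, with 4 veins (28, 31, 34, and 632, here called sparse) under 15000, against 17514 to 25141 in early AVFs, 25075 to 26168 in mid, and 24529 to 26771 in late AVFs. Genes that every cell uses were also near 0 in single contralateral veins, with 5 counts of Pgk1 in vein 28, 54 of Polr2a in vein 31, and 18 of Tbp in vein 34, so a low value in a single control vein is not read as absence. The summed level of 8 endothelial markers, all detected in every library, ranged over 2272 to 4573 CPM (read counts scaled to a common library size) in the control veins, and over 321 to 658, 540 to 772, and 648 to 901 CPM in early, mid, and late AVFs. For 6 smooth muscle markers the sum ranged over 9759 to 21179, 1022 to 2613, 1437 to 2120, and 2217 to 3360 CPM in the same order. Fibroblast markers summed to 13707 to 28221, 2227 to 17433, 15091 to 21237, and 15522 to 25914 CPM in the same order. Monocyte and macrophage markers (8 genes) went the other way, with 1786 to 6631 CPM in contralateral veins and 10246 to 30447, 10082 to 13871, and 6826 to 14321 CPM in early, mid, and late AVFs, so that no AVF overlapped with a contralateral vein. Skeletal muscle markers ranged over 1.16 to 41.4, 5.36 to 4492, 658 to 7173, and 7.46 to 8765 CPM in the same order. Only the mid AVFs all lay above all contralateral veins. Adipocyte markers had medians of 5950.5, 1383, 1172, and 923 CPM, with overlapping ranges. Parathyroid markers reached at most 10.8, 14131, 1636, and 5378 CPM. In whole vessels, fewer cells of a type and less RNA per cell cannot be told apart. Apart from leaving out the 7 AVFs with skeletal muscle markers above 1000 CPM, the part these shifts had in the results was not tested. The labelled sex went against Xist and Y-linked transcripts in 8 of the 25 libraries, all of them AVFs.

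The first comparison asked how the basement membrane genes changed over the first days of fistula flow. Of the 10 members, 1 was lower in early AVFs and 0 were higher, while 6.45% of all 12673 genes tested were called lower and 6.17% higher (edgeR quasi-likelihood test, Benjamini-Hochberg adjusted p under 0.01 and at least a 2-fold change). That gene was Lamb2. Every early AVF lay below every contralateral vein for Lamb2, as for 2.34% of all genes. The members' median log2 fold change was -0.60 in early AVFs, against -0.01 over all genes tested. In late AVFs, Col4a1, Col4a2, and Hspg2 were called higher than in contralateral veins, 3 of 10 against 2.49% of all genes, none was called lower, against 2.85%, and the members' median log2 fold change was 0.81 against -0.09.

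**Figure D1:**
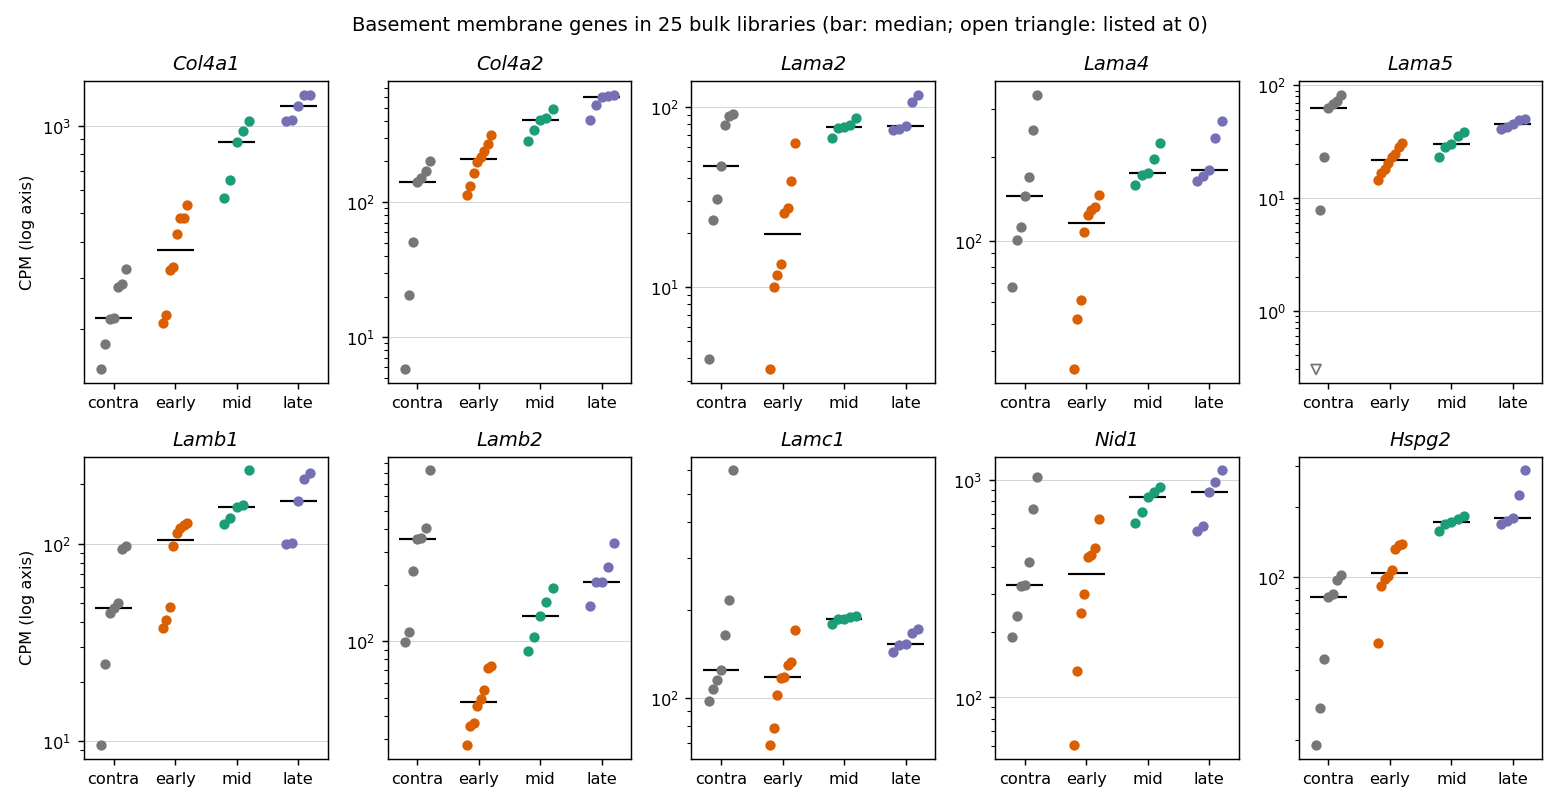
CPM of each of the 10 genes (vertical log axis, its own range per gene) in every bulk library, grouped as contralateral vein, early, mid, and late AVF on the horizontal axis, with a bar at each group's median. The late AVFs lie between 1038 and 1278 CPM for Col4a1, above all other vessels but 1 mid AVF, while every early AVF lies below every contralateral vein for Lamb2; the open triangle marks the single library with Lama5 at 0.

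Col4a1, the first chain of the α1α1α2 collagen IV network, was called higher in mid and late AVFs. Its CPM, scaled by the trimmed mean of M-values, had a lowest, median, and highest value of 145, 219, and 323 in contralateral veins and of 210, 375, and 535 in early AVFs. The mid AVFs held 565, 651, 882, 958, and 1039 CPM and the late AVFs 1038, 1050, 1169, 1274, and 1278 CPM. Every mid and every late AVF was above every contralateral vein and every early AVF, whereas early and contralateral values overlapped. The log2 fold change against contralateral veins was 0.68 ± 0.22 (SE) in early AVFs (adjusted p = 0.0247), 1.80 ± 0.24 in mid AVFs (adjusted p = 1.05e-05), and 2.30 ± 0.24 in late AVFs (adjusted p = 5.75e-07, edgeR). Mid and late calls of Col4a1 held with each library left out in turn, with log2 fold changes between 1.68 and 1.91 and between 2.19 and 2.41.

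Col4a2 encodes the partner chain that joins each pair of Col4a1 chains. Its lowest, median, and highest CPM were 5.78, 141, and 203 in contralateral veins and 112, 207, and 316 in early AVFs. Values in the mid AVFs were 282, 344, 404, 419, and 492 CPM and those in the late AVFs 407, 527, 603, 604, and 622 CPM. Mid and late AVFs all lay above all contralateral veins, and 3 contralateral veins (31, 28, and 35) lay well below the other 4, at 5.78, 20.6, and 50.3 CPM. The log2 fold change was 0.96 ± 0.44 in early AVFs (adjusted p = 0.119), 1.88 ± 0.49 in mid AVFs (adjusted p = 0.0107), and 2.39 ± 0.49 in late AVFs (adjusted p = 0.00196, edgeR). The late call was lost without the 7 AVFs whose skeletal muscle markers exceeded 1000 CPM (log2 fold change 2.30, adjusted p = 0.053), an alternative chosen after the values were seen.

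Because the pair shares its start region, their levels were compared within each library. Per kilobase of exon, Col4a2 reached between 0.559 and 0.683 of Col4a1 in the 8 early AVFs, between 0.455 and 0.687 in the 5 mid AVFs, and between 0.442 and 0.647 in the 5 late AVFs. The contralateral veins spread from 0.0203 to 1.16. Among early AVFs, log2 CPM of the genes rose and fell together (Pearson r = 0.98, exact permutation p = 9.92e-05, adjusted over 2 groups 0.000198; Spearman rho = 0.98, exact permutation p = 0.000397, adjusted 0.000794; n = 8), and r was 0.93 without the 2 AVFs farthest from the median. No such relation was seen among the 7 contralateral veins (Pearson r = -0.53, exact permutation p = 0.203; Spearman rho = -0.29, exact permutation p = 0.556), where r was -0.02 without the 2 farthest. The libraries of each group differed in depth and in the number of genes detected.

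Among the laminin α chains, none was called against contralateral veins, and all 3 had lower means in early AVFs than in any other group. Lama2 (ENSMUSG00000019899, chr10:26980036-27619758, minus strand), the chain of muscle and nerve laminins, had lowest, median, and highest CPM of 4.00, 46.6, and 91.4 in contralateral veins and 3.48, 19.5, and 62.7 in early AVFs. The mid AVFs held 66.7, 75.9, 76.9, 78.8, and 86.4 CPM and the late AVFs 74.0, 75.4, 78.2, 107, and 117 CPM. Both later groups lay above all early AVFs and within or just above the contralateral range. Its log2 fold change was -1.11 ± 0.50 in early AVFs (adjusted p = 0.11) and 0.79 ± 0.56 in late AVFs (adjusted p = 0.408, edgeR) against contralateral veins.

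Lama4 (ENSMUSG00000019846, chr10:38965515-39110188, plus strand) encodes the α chain of laminins around endothelium and fat cells. It had lowest, median, and highest CPM of 68.0, 145, and 337 in contralateral veins and 34.2, 116, and 146 in early AVFs. The mid AVFs held 159, 173, 176, 198, and 226 CPM and the late AVFs 165, 171, 181, 235, and 270 CPM. Every late AVF was above every early AVF, while late and contralateral values overlapped. The log2 fold change was -0.79 ± 0.31 in early AVFs (adjusted p = 0.0701), 0.14 ± 0.35 in mid (adjusted p = 0.858), and 0.27 ± 0.35 in late AVFs (adjusted p = 0.689, edgeR).

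Lama5 (ENSMUSG00000015647, chr2:180176373-180225859, minus strand), the broadly used α chain of mature vessels and epithelia, was low in several contralateral veins. It was listed at 0 in vein 28 and at 7.75 and 23.2 CPM in veins 31 and 35, while the other 4 veins held 63.4 to 82.5 CPM. Early AVFs ran from 14.3 to 30.8 CPM, mid AVFs held 23.2, 28.2, 30.3, 35.7, and 38.3 CPM, and late AVFs held 41.2, 42.6, 45.8, 49.5, and 50.1 CPM. Late AVFs did not overlap with early or mid AVFs, mid overlapped with early, and all AVFs lay below veins 27, 34, 632, and 633, of which 34 and 632 were among the 4 sparse veins. Over all 7 veins the early log2 fold change was -1.04 ± 0.62 (adjusted p = 0.25); without vein 28 it was -1.24 (adjusted p = 0.00924) and passed the test, and without the 4 veins with under 15000 genes detected, an alternative chosen after the values were seen, it was -1.37 (adjusted p = 0.000613, edgeR).

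Of the β chains, Lamb2 fell in early AVFs. Lamb2 (ENSMUSG00000052911, chr9:108479736-108490530, plus strand), the β chain of mature vascular and neuromuscular laminins, had lowest, median, and highest CPM of 99.1, 356, and 823 in contralateral veins and 27.8, 47.2, and 74.0 in early AVFs. Values in the mid AVFs were 89.02, 106, 136, 163, and 194 CPM and those in the late AVFs 155, 207, 207, 249, and 338 CPM. Early AVFs did not overlap with any other group, and late AVFs lay inside the contralateral range. Its log2 fold change was -2.79 ± 0.35 in early AVFs (adjusted p = 1.75e-06), -1.31 ± 0.40 in mid (adjusted p = 0.0293), and -0.56 ± 0.39 in late AVFs (adjusted p = 0.398, edgeR). The early call held with each library left out in turn, between -2.97 and -2.38, and without the 4 veins with under 15000 genes.

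Lamb1 (ENSMUSG00000002900, chr12:31265234-31329644, plus strand), the β chain of embryonic and widely used laminins, had lowest, median, and highest CPM of 9.56, 47.2, and 96.6 in contralateral veins and 37.5, 105, and 127 in early AVFs. The mid AVFs held 125, 135, 153, 157, and 234 CPM and the late AVFs 99.97, 100.4, 165, 213, and 228 CPM. All mid and late AVFs lay above all contralateral veins. The log2 fold change was 0.75 ± 0.38 in early AVFs (adjusted p = 0.16), 1.62 ± 0.42 in mid (adjusted p = 0.011), and 1.62 ± 0.42 in late AVFs (adjusted p = 0.0117, edgeR), so that both later values missed the threshold narrowly. DESeq2 gave 1.67 (adjusted p = 0.00144) and 1.66 (adjusted p = 0.00164), past it.

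Within libraries, the ratio of Lamb2 to Lamb1 per kilobase, which does not depend on library scaling, had a median of 8.68 in contralateral veins (range 1.67 to 140), 0.951 in early AVFs (0.525 to 1.79), 1.28 in mid (0.947 to 2.02), and 2.42 in late AVFs (1.91 to 3.38). The mean log2 ratio was 3.41 ± 2.05 (SD, n = 7), -0.05 ± 0.53 (n = 8), 0.46 ± 0.44 (n = 5), and 1.27 ± 0.32 (n = 5) in the same order. The early and mid ratios were lower than the contralateral one by a two-sided exact permutation test (differences of -3.46, adjusted p = 0.0101, and -2.95, adjusted p = 0.0265, over 28 tests), and the late ratio missed the threshold (difference -2.14, exact permutation, adjusted p = 0.0643). Late AVFs all had a higher Lamb2 to Lamb1 ratio than early AVFs (difference 1.31, exact permutation, adjusted p = 0.0101), the smallest adjusted value in this family. Without the 4 veins with under 15000 genes the early and mid differences were -3.54 and -3.04 (exact permutation, adjusted p = 0.0679 and 0.0849). So few veins leave few regroupings, which gave the exact test little room to pass over 28 tests. These adjusted p-values therefore cannot decide whether the differences hold.

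**Figure D2:**
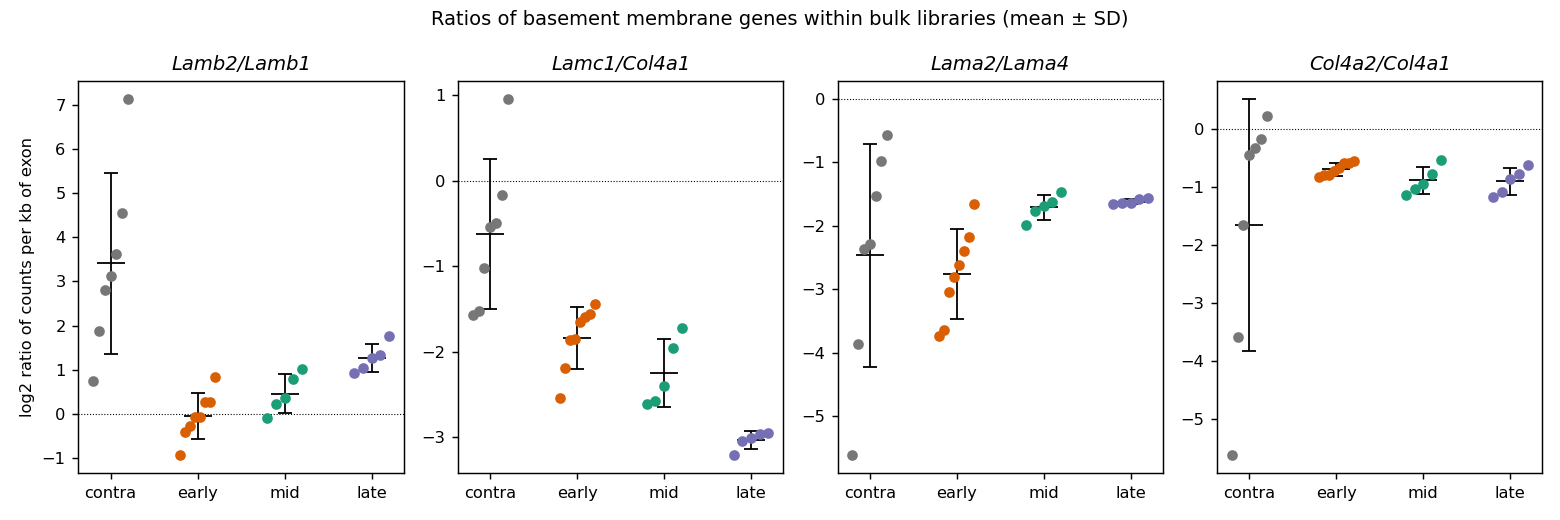
Log2 ratio of counts per kilobase of exon for 4 pairs of genes (vertical axis) in every bulk library by group (horizontal axis), with mean and SD in black. Lamb2 to Lamb1 drops to a mean near 0 in early AVFs and stands at 1.27 in late AVFs, Lamc1 to Col4a1 falls from group to group down to -3.03, and the contralateral veins spread more than the AVFs in each panel.

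Lamc1 (ENSMUSG00000026478, chr1:153218922-153332786, minus strand) encodes the γ chain shared by most laminins, and it did not follow collagen IV. Its lowest, median, and highest CPM were 97.2, 125, and 600 in contralateral veins and 68.9, 118, and 170 in early AVFs. Values in the mid AVFs were 179, 186, 186, 189, and 191 CPM and those in the late AVFs 143, 151, 153, 167, and 172 CPM. These last groups lay inside the contralateral range, whose top value, in vein 28, stood far above the other 6. Its log2 fold change was -0.83 ± 0.30 in early AVFs (adjusted p = 0.0487), -0.13 ± 0.34 in mid, and -0.37 ± 0.35 in late AVFs (adjusted p = 0.868 and 0.555, edgeR), and its sign in late AVFs turned with upper quartile scaling (0.0345) and without the 4 sparse veins (0.58). The log2 ratio of Lamc1 to Col4a1 per kilobase, which needs no scaling, was -0.62 ± 0.88 (SD, n = 7) in contralateral veins, -1.84 ± 0.37 (n = 8) in early AVFs, -2.25 ± 0.40 (n = 5) in mid, and -3.03 ± 0.11 (n = 5) in late AVFs. All 4 differences tested for this pair passed, with -2.41 for late against contralateral and -1.20 for late against early (two-sided exact permutation, adjusted p = 0.0101 for each). The sparse vein 28 held the highest log2 ratio of the 7 veins, at 0.96. As for Lamb2 to Lamb1, leaving out the 4 sparse veins leaves few regroupings. The exact test then cannot decide on this pair's differences from contralateral veins.

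Of the linkers, Hspg2 (ENSMUSG00000028763, chr4:137468769-137570630, plus strand), the heparan sulfate proteoglycan perlecan, rose. Its lowest, median, and highest CPM were 19.0, 82.3, and 102 in contralateral veins and 52.3, 105, and 139 in early AVFs. The mid AVFs held 158, 169, 172, 178, and 183 CPM and the late AVFs 169, 175, 180, 227, and 288 CPM. Every mid and late AVF was above every contralateral vein and every early AVF. The log2 fold change was 0.72 ± 0.29 in early AVFs (adjusted p = 0.0775), 1.40 ± 0.32 in mid (adjusted p = 0.00437), and 1.67 ± 0.32 in late AVFs (adjusted p = 0.00109, edgeR). The mid call was lost without any 1 of the 5 mid AVFs (adjusted p between 0.0101 and 0.0153) or without the 4 sparse veins (0.0241), and both calls without the 7 AVFs rich in skeletal muscle markers (adjusted p = 0.233 and 0.0279).

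Nid1 (ENSMUSG00000005397, chr13:13437551-13512269, plus strand), which binds both the laminin γ1 chain and collagen IV, was among the more abundant members per kilobase in every group. Its lowest, median, and highest CPM were 190, 330, and 1033 in contralateral veins and 60.3, 371, and 665 in early AVFs. Values in the mid AVFs were 636, 715, 834, 878, and 932 CPM and those in the late AVFs 583, 618, 878, 978, and 1108 CPM. All groups overlapped with the contralateral range. Its log2 fold change was -0.42 ± 0.38 at the early, 0.78 ± 0.43 at the mid, and 0.84 ± 0.42 at the late time point (adjusted p = 0.466, 0.258, and 0.226, edgeR).

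Across mid AVFs, 2 of 10 members were called higher and 0 lower, against 2.74% and 3.31% of all genes, and 4 of 10 (Col4a1, Col4a2, Lamb1, and Hspg2) had every mid AVF above every contralateral vein, as had 7.32% of all genes. The same 4 lay above in every late AVF, against 6.25% of all genes. Between the early and late time points, 2 of 10 members were called higher and 0 lower, against 0.726% and 2.28% of all genes. Col4a1 differed by 1.63 ± 0.23 on the log2 scale (adjusted p = 0.000351) and Lamb2 by 2.23 ± 0.37 (adjusted p = 0.00142, edgeR). Neither call passed without the 7 AVFs rich in skeletal muscle markers (edgeR adjusted p = 0.0176 and 0.0204). In 7 of 10 members every late AVF was above every early AVF, as in 7.16% of all genes: Col4a1, Col4a2, Lama2, Lama4, Lama5, Lamb2, and Hspg2. All 10 estimates of late against early were positive, with a median log2 fold change of 1.16, against 0.01 over all genes. No member was called between mid and early, where 0.00789% of all genes were called higher and 0% lower. Still, in 6 of 10 members every mid AVF was above every early AVF, as in 3.31% of all genes. All 10 estimates of mid against early were positive, with a median log2 fold change of 0.92, against 0.0035 over all genes. No member was called between late and mid, where 0% of all genes were called in either direction. The early comparisons share the contralateral veins with the mid and late ones, so their values are given side by side and were not correlated.

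**Figure D3:**
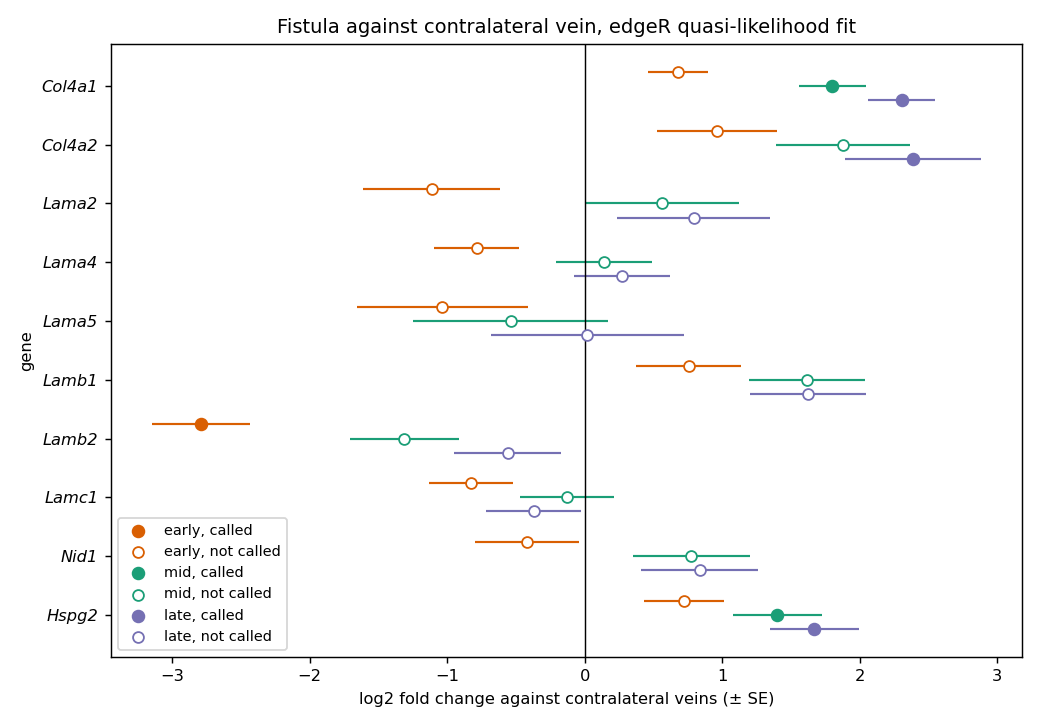
Log2 fold change against contralateral veins (horizontal axis, ± SE) for each of the 10 genes in early, mid, and late AVFs, with filled points for calls at adjusted p under 0.01 and at least a 2-fold change. Lamb2 in early AVFs (-2.79) is the filled point left of 0, and the filled points right of 0 are Col4a1 and Hspg2 in mid and late AVFs and Col4a2 in late AVFs.

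Per kilobase of exon, the order of the levels shifted with time. In contralateral veins, mean CPM per kilobase was 67.2 ± 44.1 (SD) for Nid1, 56.1 ± 40.2 for Lamb2, 31.5 ± 8.50 for Col4a1, 24.6 ± 21.7 for Lamc1, 16.0 ± 11.9 for Col4a2, 14.0 ± 7.84 for Lama4, and under 6 for Lamb1, Hspg2, Lama5, and Lama2. From Nid1 down to Lama4, each pair of neighbours differed by less than the larger of their SDs, so the order among these genes was not resolved. In early AVFs Col4a1 (50.3 ± 16.6) and Nid1 (50.1 ± 28.9) were level, and Lamb2 had fallen to 8.12 ± 2.79, beside Lama4 (8.13 ± 3.53) and Lamb1 (8.90 ± 3.97). In late AVFs Col4a1 led with 156 ± 15.6, followed by Nid1 with 120 ± 32.8, Col4a2 with 83.5 ± 13.5, and Lamb2 with 38.0 ± 11.2, while Lama2 (5.52 ± 1.22) and Lama5 (4.03 ± 0.35) stayed lowest.

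For each called member, the 3 genes with the most similar log2 CPM over the 25 libraries were listed. Acan (aggrecan), Sulf1 (a heparan sulfate 6-O-endosulfatase), and Col11a1 (a minor fibrillar collagen) lay nearest to Col4a1, with Pearson r of 0.90, 0.83, and 0.83. Dnajc14, Cd276, and Plxna1 lay nearest to Col4a2 (r = 0.93, 0.92, and 0.92), Palm, Twsg1, and Il6st nearest to Lamb2 (r = 0.94, 0.93, and 0.93), and Fn1 (fibronectin), Myo1e, and Srpx2 nearest to Hspg2 (r = 0.90, 0.89, and 0.87). The libraries share groups, depth, and sparse control veins, so these values describe the table only.

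Other basement membrane genes were counted from lists chosen with earlier results of these data known. Of 7 tested genes among the minor collagen IV and laminin chains and Nid2, 0 were called in early or late AVFs. Of 12 tested basement membrane associated genes, 4 were called lower and 0 higher in early AVFs (6.45% and 6.17% of all genes), and 2 higher and 1 lower in late AVFs (2.49% and 2.85% of all genes). Tinagl1, a matricellular protein that binds laminin, was lowest in early AVFs (37.9 to 81.4 CPM against 232 to 683 in contralateral veins) and was still lower in late AVFs (log2 fold change -1.98 ± 0.26, adjusted p = 8.07e-06). Col18a1, whose chain releases endostatin, held 331 to 452 CPM in late AVFs against 0.375 to 130 in contralateral veins (2.89 ± 0.71, adjusted p = 0.00755), and Fbln2, a fibulin of the matrix, rose by 1.07 ± 0.27 (adjusted p = 0.0093, edgeR).

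The same shares of all genes, 6.17% higher and 6.45% lower in early and 2.49% and 2.85% in late AVFs, stand beside the counts that follow. Of 11 receptors, 1 was called higher and 3 lower in early AVFs, and 0 and 1 in late AVFs, where Bcam, a receptor for laminin α5, was the one called (log2 fold change -1.42 ± 0.32, adjusted p = 0.00438, edgeR). Itga1, the α subunit of a collagen IV and laminin binding integrin, went from 162 to 789 CPM in contralateral veins to 54.3 to 94.4 CPM in early AVFs (-2.46 ± 0.28, adjusted p = 3.38e-07, edgeR). Of 10 collagen IV assembly genes, 1 (Plod2, a lysyl hydroxylase) was called higher in early and 0 in late AVFs. The collagen chaperone Serpinh1 stood at 1.25 ± 0.37 in late AVFs (adjusted p = 0.0253, edgeR), short of the threshold. Of 6 degradation genes, 3 were called higher in early and 2 in late AVFs, and Mmp14, a membrane-bound metalloproteinase, was among them at both times (1.43 ± 0.39 and 1.99 ± 0.43, adjusted p = 0.00912 and 0.00304, edgeR).

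The single-cell libraries asked which cells held these transcripts. Of 26438 barcodes, 16893 passed the filters, 6319 from contralateral veins, 4753 from early AVFs, and 5821 from late AVFs, with median depths of 2751, 8951, and 15425 unique molecular identifiers (UMIs) per cell. Between libraries, 19, 14, and 16 barcodes were shared. Cells were grouped without the 10 genes, the pathway genes, or the marker genes and named from marker lists, so that each class is called by its markers and "-like". The fibroblast-like class held 1868, 418, and 1984 cells, smooth muscle-like 33, 229, and 512, endothelial-like 809, 65, and 72, and Schwann-like 394, 10, and 24 cells (contralateral, early, late). Different clusters made up the fibroblast-like class, with 1677 of 1868 contralateral cells in one and 416 of 418 early and 1951 of 1984 late cells in another. Intervals in brackets are 95% Poisson or exact binomial intervals and cover counting error only, not differences between vessels.

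**Figure D4:**
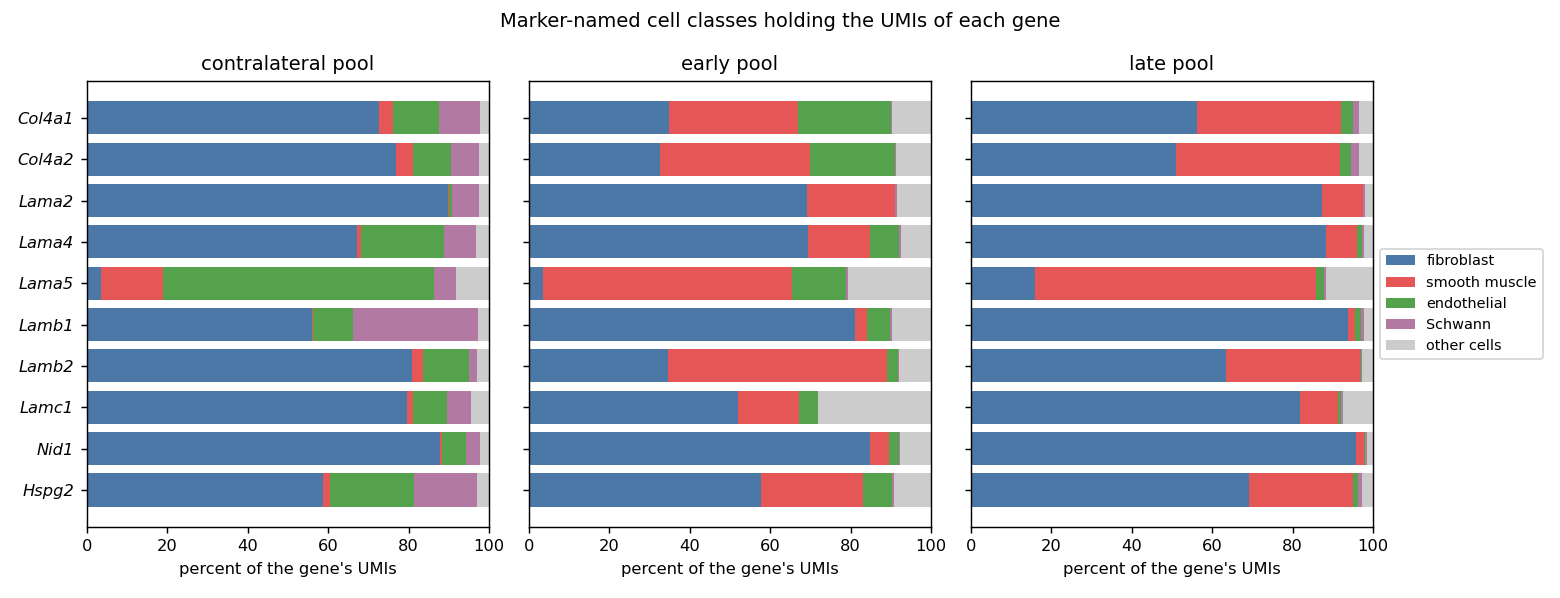
Percent of each gene's UMIs (horizontal axis) that fell in fibroblast-like, smooth muscle-like, endothelial-like, Schwann-like, and all other cells in the contralateral, early, and late pools. Fibroblast-like cells held most Nid1 and Lama2 UMIs in every pool. Most Lama5 UMIs were in endothelial-like cells in the contralateral pool (67.4%) and in smooth muscle-like cells in the late pool (69.8%). These pools held 33 and 512 captured smooth muscle-like cells, whereas bulk smooth muscle markers were lower in late AVFs (2217 to 3360 CPM) than in contralateral veins (9759 to 21179 CPM).

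The genes divided by cell class. Nid1 and Lama2 were mainly fibroblast-like transcripts, with 87.7% and 89.7% of their contralateral UMIs and 95.7% and 87.3% of their late UMIs in that class. Lama5 was nearly absent from fibroblast-like cells, at 0.848, 1.70, and 2.50 CPM in contralateral, early, and late pools, against 140, 69.5, and 43.3 CPM in smooth muscle-like and 69.8, 110, and 33.4 CPM in endothelial-like cells. Lama2 was the reverse in the endothelium: 16, 0, and 1 UMIs in the endothelial-like class, or 5.40, 0, and 1.97 CPM.

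**Figure D5:**
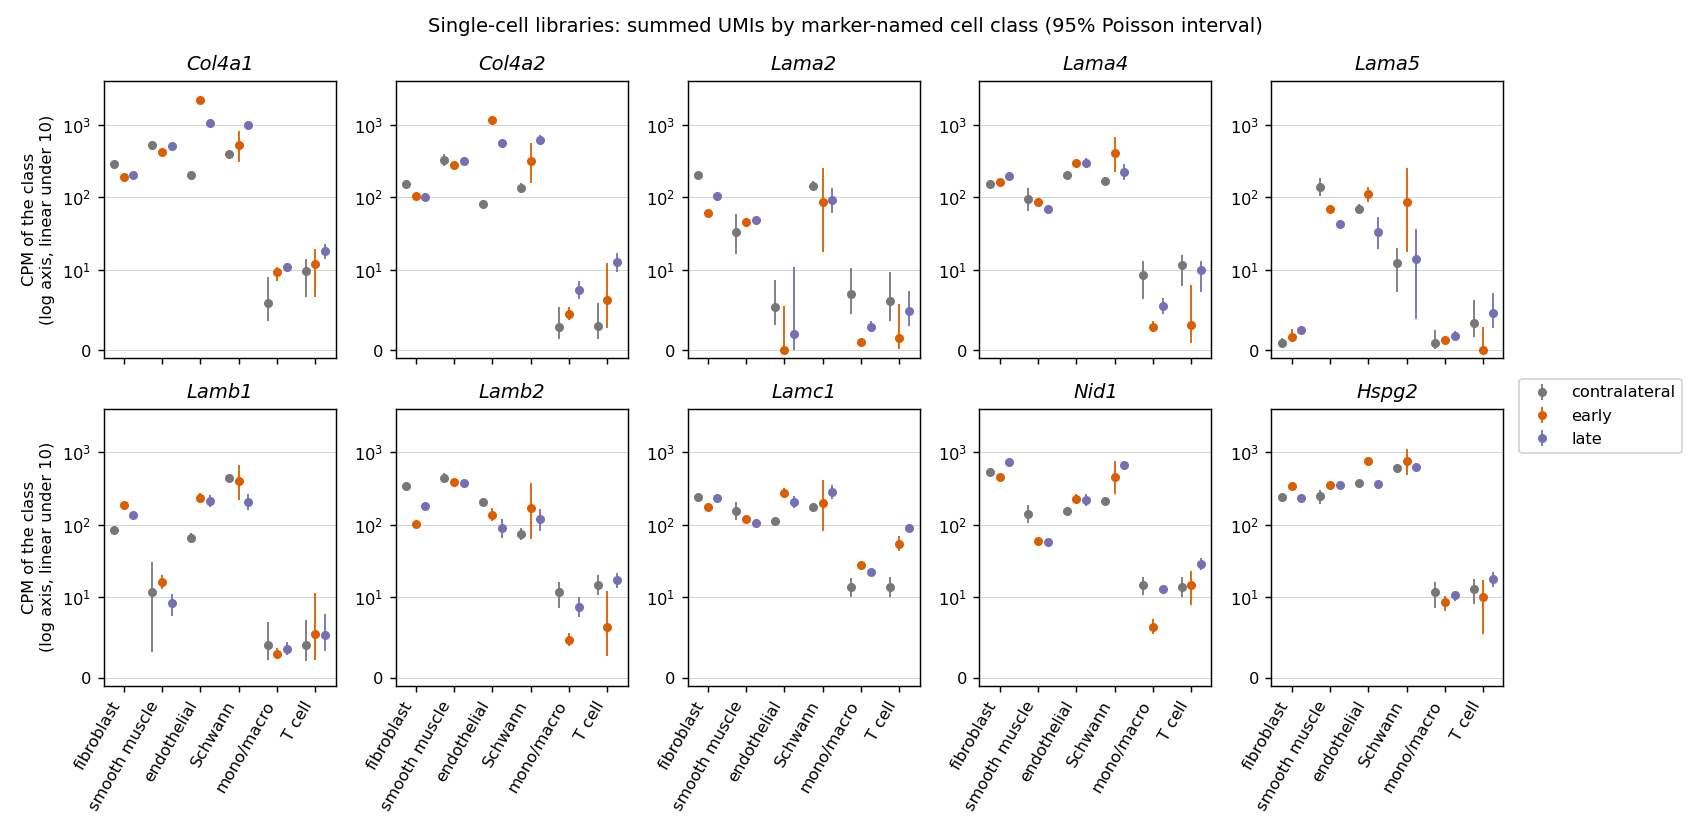
CPM of each gene summed over the cells of a marker-named class (vertical axis, log above 10), with 95% Poisson intervals, in 6 classes (horizontal axis) of the contralateral, early, and late pools. Col4a1 and Col4a2 stand out in endothelial-like cells of early AVFs (2208 and 1160 CPM), and all genes but Lamc1 stay under 30 CPM in the macrophage-like and T cell-like classes.

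Col4a1 was 11.1-fold higher in endothelial-like cells of the early pool than of the contralateral pool, and 5.29-fold higher in those of the late pool. Its level was 200 CPM [184, 216] in contralateral, 2208 [2098, 2324] in early, and 1055 [968, 1148] in late endothelial-like cells. A Col4a1 UMI was found in 20.9% [18.1, 23.9], 80% [68.2, 88.9], and 75.0% [63.4, 84.5] of them. After thinning every cell to 1500 UMIs, the shares were 14.3%, 71.2%, and 55.2%, over 496, 59, and 58 cells. In neutrophil-like cells, which should lack the gene, 1.64%, 8.84%, and 7.14% had a UMI, at median depths of 3095, 3476, and 3369 UMIs against 2263, 9096, and 4671 in endothelial-like cells. Col4a2 followed, with 80.6 [70.7, 91.5], 1160 [1080, 1244], and 556 CPM.

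The fibroblast-like and smooth muscle-like classes showed no such difference in Col4a1. Fibroblast-like cells held 291 [282, 301], 191 [183, 199], and 200 [196, 204] CPM and smooth muscle-like cells 517 [443, 599], 424 [406, 442], and 503 [491, 516] CPM. Summed over all cells, the 3 pools held 178, 116, and 182 CPM of Col4a1, which is no rise of the late pool over the contralateral one, while the bulk late AVFs stood about 2.30 log2 units above contralateral veins. Bulk RNA came from whole vessels and the pools from dissociated cells, and the late pool was collected on later mean days than the bulk late AVFs. What these differences do to the levels was not tested. The endothelial-like class also changed in content. Lymphatic endothelial markers summed to 1283, 1007, and 9733 CPM and endothelial markers to 7288, 4922, and 3356 CPM in the contralateral, early, and late classes. In each class 5 cells held a large share of the Col4a1 UMIs, with 33.45% in the contralateral, 28.5% in the early, and 44.5% in the late class. Hemoglobin and other erythroid markers made up 30940 CPM of the contralateral, 4180 CPM of the early, and 5.89 CPM of the late class.

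The β chains differed between pools in fibroblast-like cells. Lamb2 held 341 [331, 351] CPM in contralateral, 102 [96.0, 108] in early, and 183 [179, 187] in late fibroblast-like cells, while Lamb1 held 84.9, 186 [178, 194], and 136 [133, 139] CPM. Smooth muscle-like cells kept Lamb2 at 445 [377, 523], 385 [368, 403], and 378 [367, 389] CPM and held little Lamb1, at 11.9, 16.3, and 9.33 CPM. In endothelial-like cells Lamb2 was 209, 138, and 90.4 CPM and Lamb1 66.1, 232, and 212 CPM. Lamb1 and Lamb2 were also read within 1 cluster. Within the cluster that held most AVF fibroblast-like cells, the 191 contralateral cells had 240 CPM of Lamb2 and 221 CPM of Lamb1, against 101 and 186 CPM in the 416 early and 182 and 137 CPM in the 1951 late cells. In that cluster Lamb1 was no lower in contralateral than in early cells, while Lamb2 was still higher in contralateral cells.

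Lama2 also differed between pools. Its level in fibroblast-like cells was 203 [195, 211], 59.7 [55.4, 64.3], and 105 [103, 108] CPM, and Lama4, which all wall classes held, was 151 [145, 158], 163 [156, 171], and 197 [193, 201] CPM there. Nid1 in the same cells was 535 [522, 548], 453 [441, 465], and 735 [727, 742] CPM. Within the cluster that held most AVF fibroblast-like cells, Nid1 was 1172 CPM in contralateral, 454 in early, and 739 in late cells. Lama4 there was 273, 163, and 197 CPM. In that cluster Nid1 and Lama4 were lower in late than in contralateral cells, the reverse of the whole class. Lama2 kept its direction there, at 212, 59.8, and 105 CPM. Hspg2 was highest in Schwann-like and endothelial-like cells, at 604 and 375 CPM in the contralateral pool, and reached 751 [687, 819] CPM in early endothelial-like cells before 362 [311, 418] in late ones.

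Schwann-like cells of the contralateral pool were the highest class for Lamb1 and Hspg2 only. The 394 cells held 445 [410, 482] CPM of Lamb1, with 389 of Col4a1, 144 of Lama2, and 176 of Lamc1, and they supplied 31.1% of the pool's Lamb1 UMIs. Col4a1 was higher in contralateral smooth muscle-like cells (517 CPM), and Lama2 and Lamc1 in fibroblast-like cells (203 and 242 CPM). The 24 late Schwann-like cells held 993 [881, 1116] CPM of Col4a1 and 623 [535, 722] of Col4a2, and the top 5 cells for each gene held 56.0% and 54.8% of those UMIs.

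In T cell-like cells of the early and late pools, Lamc1 was the most abundant of the 10 members. It stood at 14.0 [10.0, 19.0] CPM in contralateral, 55.1 [43.0, 69.6] in early, and 90.2 [81.5, 99.7] in late pools, with a UMI in 5.05%, 19.6%, and 40.1% of the cells. After thinning to 1500 UMIs the shares were 2.43%, 6.96%, and 12.6%. Neutrophil-like cells had a Lamc1 UMI in 0 of 61, 3.51%, and 7.86%, and held 0, 8.33, and 24.2 CPM, at median depths of 3095, 3476, and 3369 UMIs against 3597, 5621, and 6470 in T cell-like cells. Col4a1 in the same T cell-like cells was 9.89, 11.8, and 18.0 CPM. Macrophage-like cells held 13.8, 28.2, and 22.4 CPM of Lamc1. The content of the T cell-like class also changed between pools. T cell markers summed to 908, 1881, and 1771 CPM there and natural killer (NK) cell markers to 1170, 964.5, and 558 CPM (contralateral, early, late). In the contralateral pool the NK cell markers thus exceeded the T cell markers. What this does to the Lamc1 levels was not tested.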

How the data were processed

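Bulk RNA sequencing of 25 vessels (7 contralateral veins, 8 early, 5 mid, and 5 late AVFs) and single-cell RNA sequencing of 3 pools were analysed. The authors deposited raw read counts per gene for the bulk libraries and unique molecular identifier counts per gene and cell barcode for the pools. The submitters' processing notes name STAR, Cell Ranger, and the builds mm10 and GRCm38 without roles, and for the bulk table the counter and annotation release were not given in the sources used here. Members and gene lists were chosen with earlier results of these data known.

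The 12673 genes whose DESeq2-normalized count averaged 100 or more were fitted over all 4 groups with the quasi-likelihood test of edgeR 4.0.16 (R 4.3.3) after TMM scaling, without covariates, and p-values were adjusted by Benjamini-Hochberg. A call needed an adjusted p under 0.01 and a log2 fold change of 1 or more in size. Since each library is 1 vessel, p-values measure the spread between vessels. The edgeR fit used 1 estimate of spread per gene for all 4 groups. Its comparisons between AVF groups therefore also carried the spread of the contralateral veins, the sparse ones included. Ratios of 7 gene pairs used counts per kilobase of GENCODE M21 exon with 0.5 added to each count, compared in 28 exact two-sided permutation tests at an adjusted p under 0.05, where 5 against 7 vessels cannot go below p = 0.00252 and 5 against 8 below 0.00155. The fits were tested on simulated data. The counts simulated for edgeR were drawn from gene means pooled over all libraries and held no sparse control veins. That test therefore does not cover what the sparse veins do to the comparisons.

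Barcodes were kept between 200 and 6000 genes and up to 10% mitochondrial counts, and clustered without the 10 genes, the pathway genes, or the marker genes in scanpy 1.11.5 (2000 variable genes, 12 principal components, 20 neighbors, Leiden resolution 0.5). Scrublet marked 0, 2, and 120 cells (contralateral, early, late), and no cell was removed by it. Doublets in the contralateral and early pools may have gone unmarked, which was not tested. With 1 library per condition there was no test.

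All 10 members were named throughout. From each pathway list, at most 4 genes were given values, those with the smallest adjusted p of late AVFs against contralateral veins, and the 3 genes most alike were ranked for each called member. Alternatives were the likelihood ratio test, DESeq2 1.42.0, DESeq2 size factors, upper quartile scaling, other filters and thresholds, single sexes, and each library left out. Leaving out the 4 sparse contralateral veins, early AVFs 5 and 6, or the 7 AVFs with skeletal muscle markers above 1000 CPM, and an offset of 1 count, were chosen after seeing the data.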

Additional observations from a re-analysis of the deposited data

Results flagged for a closer look

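In 40 groups of values, 1 for each gene and vessel group, 2 held a vessel far from the rest, and chance sets apart about 1 in 20 such groups. Both were contralateral vein 28, with 823 CPM of Lamb2 and 599.8 CPM of Lamc1, each far above the other 6 veins. The same vein held the fewest counts of Pgk1 and Lama5.

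The effects against contralateral veins differed between late and early AVFs for Col4a1, by 1.63 on the log2 scale, and for Lamb2, by 2.23, in the edgeR contrast of late against early AVFs. Every late AVF was above every early AVF for both genes.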

How the results depend on the processing

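No paired analysis was possible because the groups share no replicate numbers. Among member log2 fold changes under alternatives other than leaving out 1 vessel, 453 kept their direction and side of the threshold, 35 newly passed, 19 no longer passed, and 13 turned sign, and the cause of these changes was not tested.

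Female and male below are the labelled sexes, which Xist and Y-linked counts went against in 2 early, 2 of 5 mid, and 4 of 5 late AVFs. In early AVFs, 1 member was called against contralateral veins, but 0 in mice labelled female, 2 in mice labelled male, and 2 without the 4 sparse veins. In mid AVFs the count was 2, but 4 with the likelihood ratio test, DESeq2 size factors, upper quartile scaling, the filterByExpr filter, or DESeq2, 5 at an adjusted p under 0.05, 1 in mice labelled female, 0 in mice labelled male, and 1 without the 7 AVFs with skeletal muscle markers. In late AVFs it was 3, but 1 in mice labelled female, 0 in mice labelled male, and 1 without those 7. Between mid and early it was 0, but 2 with the likelihood ratio test, an adjusted p under 0.05, or DESeq2. Between late and early it was 2, but 0 in either sex alone, 6 without the 4 sparse veins, and 0 without the 7 AVFs. At an adjusted p under 0.05, Lamb1 also passed in late AVFs (edgeR adjusted p = 0.0117) and Lama2 between late and early (edgeR adjusted p = 0.0282). With 1 vessel left out, the counts ran from 1 to 2 in early AVFs (2 without vein 28) and from 1 to 5 in mid AVFs (1 without any 1 mid AVF, 4 without early AVF 6, 5 without vein 34). They ran from 3 to 4 in late AVFs, from 0 to 1 between mid and early, and from 2 to 3 between late and early.

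Without the 4 sparse veins, log2 fold changes turned to 0.12 for Lamc1 and 0.18 for Nid1 in early, 0.82 for Lamc1 in mid, and -0.32 for Lama5 and 0.58 for Lamc1 in late AVFs. In mice labelled male they turned to -0.41 for Lama4 and 0.12 for Lamc1 in mid, -0.43 for Lama4, -0.64 for Lama5, and -0.28 for Nid1 in late AVFs, and -0.0628 for Lamb1 between late and early. Upper quartile scaling turned Lamc1 to 0.29 in mid and 0.0345 in late AVFs. With 1 vessel left out, Lama4 mid ran from -0.0052 to 0.42, Lamc1 mid from -0.32 to 0.46, Lamc1 late from -0.56 to 0.22, and Lama5 late from -0.18 to 0.23.

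Between late and early AVFs, the log2 ratios Lama2 to Lama4 (1.14), Nid1 to Lamc1 (1.02), and Hspg2 to Col4a1 (-0.72) passed (exact permutation, adjusted p = 0.0101, 0.0435, and 0.0338). With 1 vessel left out, their highest adjusted p was 0.0189, 0.113, and 0.088 (exact permutation). None of these pairs passed against contralateral veins. Log2 ratios without the 4 sparse veins turned to -0.11, -0.30, and -0.32 for Col4a2 to Col4a1 and to -0.74, -1.30, and -0.84 for Lama5 to Lama4 (early, mid, late), to -0.24 and -0.15 for Lama2 to Lama4 (mid, late), to -0.14 for Nid1 to Lamc1, and to -0.0192 for Hspg2 to Col4a1 in early AVFs. Nid1 to Lamc1 in early AVFs was -0.17 in mice labelled female and -0.15 without the 7 AVFs, Hspg2 to Col4a1 in mid AVFs was 0.0231 in mice labelled female, and Lama5 to Lama4 between late and early was 0.27 without early AVFs 5 and 6. With 1 vessel left out, Lama5 to Lama4 ran from -0.17 to 1.77 in early, -0.72 to 1.21 in mid, and -0.26 to 1.67 in late AVFs, and from -0.25 to 0.18 between late and early. Lama2 to Lama4 in early AVFs ran from -0.82 to 0.016, Nid1 to Lamc1 in early AVFs from -0.29 to 0.32, and Hspg2 to Col4a1 in mid AVFs from -0.39 to 0.0781.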
